A study of Mus musculus with 26 samples.

Results

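The 10 genes described here encode ATF4, CHOP (gene Ddit3) and their close partners in the stress response: the bZIP transcription factors Atf4, Atf5, Ddit3 and Atf3, the eIF2 phosphatase subunits Ppp1r15a (GADD34) and Ppp1r15b (CReP), and the effectors Trib3, Chac1, Sesn2 and Ddit4. They were chosen by name, with earlier results of these data known. Each has 1 row among the 20430 genes of the RNA table and 1 row among the 19941 genes of the ribosome footprint table. The cells were NIH3T3, an established line of mouse embryonic fibroblasts, with 2 libraries in each of 13 groups. Polyadenylated RNA was sequenced in 8 groups: a heat control, 44 °C for 2 h, 42 °C for 8 h, a control shared by the chemical treatments, H2O2 (oxidative stress) for 2 h and 7 h, and KCl (osmotic stress) for 2 h and 7 h. Ribosome footprints were sequenced in the control, H2O2 and KCl groups, so the heat responses have no footprint counterpart here. The labels give neither the doses nor what the controls received, and they do not say whether replicates were separate cultures, so each p-value measures the spread between these libraries.

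When cells are starved of amino acids, fill with unfolded protein or meet oxidants, kinases phosphorylate the initiation factor eIF2, which lowers most protein synthesis. Messenger RNAs whose main reading frame lies behind short upstream open reading frames, among them those of ATF4, ATF5, CHOP, GADD34 and CReP, are known for being translated better in that state. ATF4 and CHOP then drive genes for amino acid supply, redox balance and growth control, and GADD34 with protein phosphatase 1 removes the phosphate from eIF2.

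The promoter windows of 4 of the genes hold a site of the kind that ATF family factors are known to bind, and 3 of these stretches are shown because the genes that carry them were among those with large RNA responses below. RefSeq promoter windows (GRCm38.p6, the mm10 build of the files, 250 bases before to 50 after the start site) were found for 9 of the 10 genes, as 10 windows. The composite C/EBP-ATF element, TGATGNAA on either strand, lay in the windows of Atf3, Chac1 and Trib3, and in 3.97% of all 32851 windows. The cAMP response element, TGACGTCA, lay in the window of Ppp1r15a and in 1.79% of all windows. The stretches run 5′ to 3′ on the strand of the gene, with the matching letters in capitals, and they end before the start site.
Atf3: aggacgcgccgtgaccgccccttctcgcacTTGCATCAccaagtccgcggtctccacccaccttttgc
Chac1: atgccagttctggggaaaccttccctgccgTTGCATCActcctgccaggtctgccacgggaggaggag
Ppp1r15a: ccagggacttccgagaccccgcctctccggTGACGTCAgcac
The Atf3 stretch is chr1:191183406-191183473 on the minus strand, with the match beginning at base -110 from the start site. The Chac1 stretch is chr2:119351019-119351086 on the plus strand, with the match at -193. Both carry the composite element in reverse orientation and with the same 8 letters. The Ppp1r15a stretch is chr7:45526269-45526310 on the minus strand, with the match at -12. The Trib3 match lies after the start site, at base 15, and is not printed. Of 4 further motifs searched on both strands, the AP-1 site TGANTCA was found in the Ddit3 window (7.81% of all windows) and the antioxidant core TGACNNNGC in those of Sesn2 and Ppp1r15a (12.4%). The heat shock pair GAANNTTC (7.86% of all windows) and the unfolded protein response element TGACGTGG (0.676%) were in none of the 10. A match describes letters only and says nothing of binding.

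RNA libraries held 24441877 to 45244430 expected counts and footprint libraries 1460751 to 5168537, so footprint values carry the larger error. Both footprint extremes belong to H2O2 at 2 h, replicate 1 with the fewest and replicate 2 with the most. The correlation of these replicates across genes, 0.9844 on a log2 scale, was the lowest of the 13 groups. The fibroblast markers were present, with all 8 at a mean of 1 TPM (transcripts per 1000000, a level scaled for transcript length and depth) or more in each RNA group and summed levels of 3647 to 10060.0 TPM. The lowest sums were those of H2O2 at 7 h, 3647 and 3674 TPM against 7877 and 8087 in its control. The 9 markers of epithelial, endothelial, blood and muscle cells summed to 18.5 to 57.3 TPM, mostly from Krt18 and Cd68. That sum was also highest in H2O2 at 7 h, with 57.3 and 56.6 TPM against 25.2 and 22.6 in its control. Cdh5, Ptprc and Myod1 did not pass 0.09 TPM in any library. The part of these shifts in the results at 7 h of H2O2 was not tested.

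H2O2 raised the RNA of nearly the whole set. At 2 h, 9 of the 10 genes passed the test and all 9 were higher, against 53.9% of all 13256 genes tested in either direction and 27.3% higher. At 7 h all 10 were higher, against 70.5% in either direction and 39.4% higher. The median log2 fold change of the 10 was 1.93 at 2 h and 2.61 at 7 h, beside 0.00 and 0.08 over all genes. Passing the test means a Benjamini-Hochberg adjusted p under 0.05 over all genes in edgeR's quasi-likelihood test, here and in the other comparisons. KCl moved the genes in both directions at 2 h, when 9 of the 10 passed (5 higher and 4 lower, against 54.2% of all genes). At 7 h of KCl 7 of the 10 passed and none was lower, against 68.8% of all genes in either direction and 37.2% higher. Of the KCl calls, those of Ddit3 at both times, Sesn2 at 2 h and Atf5 at 7 h depended on single libraries, as given below. At 42 °C all 10 passed, 8 lower and 2 higher, against 63.6% of all 12747 genes in either direction and 31.9% lower. At 44 °C 6 passed, 2 higher and 4 lower, against 71.0%. The number that passed at 44 °C and at 7 h of KCl was thus near the share of all genes. On the log2(TPM + 1) scale the split of all genes at 42 °C was 1945 higher and 6287 lower, beside 4041 and 4072 in the main fit, and the median of all genes there was -0.16.

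**Figure D1:**
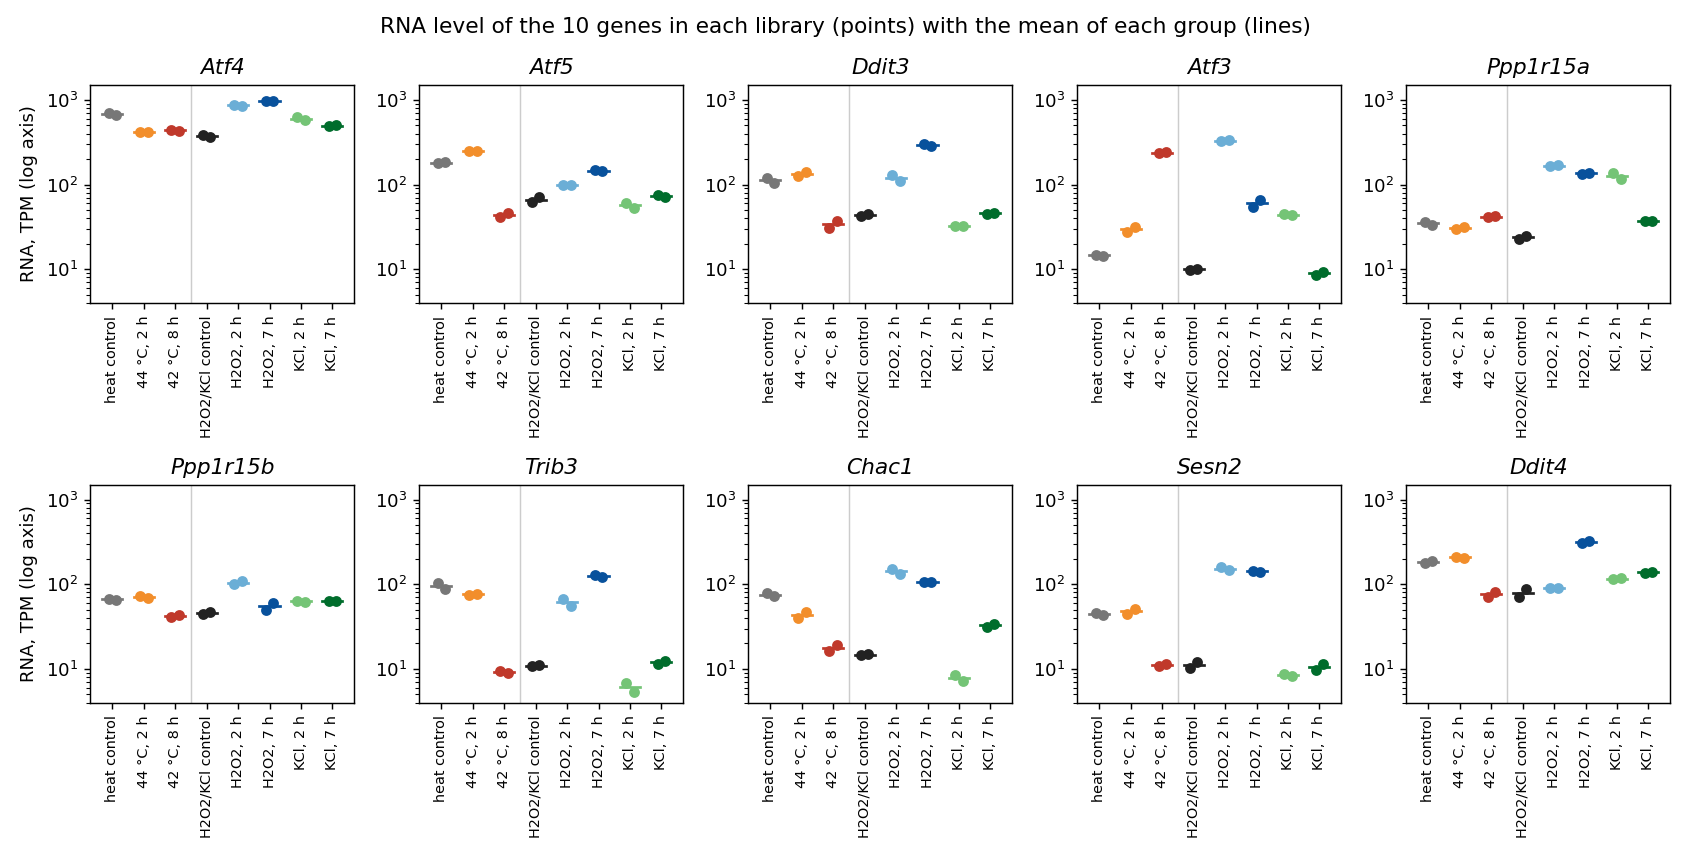
RNA level (TPM, log axis) of each gene in each of the 16 RNA libraries; points are libraries, short lines are group means, and the grey vertical line separates the heat experiment from the H2O2 and KCl experiment. Trib3, Chac1 and Sesn2 stand higher in the heat control than in the other control, and at 42 °C they stand near that other control.

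ATF4 is the main transcription factor of the pathway, and Atf4 RNA (chromosome 15, 80255184 to 80257545) had the highest TPM of the 10 in every group. It stood at 383 and 361 TPM in the control, 881 and 855 TPM after 2 h of H2O2, and 966 and 962 TPM after 7 h. KCl gave 632 and 572 TPM at 2 h and 487 and 508 TPM at 7 h. All 8 treated libraries lay above both controls. The log2 fold change was 1.22 ± 0.06 (SE, n = 2 against 2) at 2 h of H2O2 and 1.46 ± 0.07 at 7 h (edgeR adjusted p = 2.46e-09 and 9.34e-11). With KCl it was 0.79 ± 0.06 and 0.52 ± 0.06 (edgeR adjusted p = 1.78e-07 and 6.50e-06). In the heat experiment the control had 692 and 658 TPM, 44 °C had 417 and 419.9 TPM, and 42 °C had 443 and 433 TPM. Both heat groups lay below their control, by a log2 fold change of -0.75 ± 0.04 at 44 °C and -0.44 ± 0.04 at 42 °C (edgeR adjusted p = 1.81e-09 and 7.09e-07). Over the 8 groups the highest mean was 2.59 times the lowest, and no neighbouring groups in that order overlapped.

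Atf5 (chromosome 7, 44812256 to 44816658) encodes a relative of ATF4 that is known for the mitochondrial stress response. Its highest RNA level was at 44 °C, 248 and 246 TPM, and its lowest at 42 °C, 41.5 and 45.7 TPM, around a heat control of 178 and 184 TPM. The log2 fold change was 0.38 ± 0.04 at 44 °C and -1.88 ± 0.05 at 42 °C (edgeR adjusted p = 2.32e-06 and 1.03e-12). In the other experiment its control had 61.5 and 70.9 TPM, H2O2 99.9 and 98.1 TPM at 2 h and 147 and 143 TPM at 7 h. These rises were 0.57 ± 0.08 and 1.23 ± 0.08 in log2 (edgeR adjusted p = 2.97e-05 and 4.10e-09). KCl values lay close to the control, with 60.9 and 52.5 TPM at 2 h and 75.4 and 72.0 TPM at 7 h. The log2 difference was -0.12 ± 0.08 at 2 h (edgeR adjusted p = 0.229) and 0.25 ± 0.08 at 7 h (0.0131). The call at 7 h was lost without replicate 1 of the control (0.15, edgeR adjusted p = 0.180) or of KCl 7 h (0.19, 0.126), and the value at 2 h passed without replicate 1 of KCl 2 h (-0.22, 0.0493) and by limma on log2(TPM + 1) (0.0413).

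CHOP, the product of Ddit3 (chromosome 10, 127290793 to 127296291), is a C/EBP-type factor known for its role in stress-induced cell death. Ddit3 RNA stood at 42.9 and 45.1 TPM in the control, 131 and 109 TPM at 2 h of H2O2, and 302 and 282 TPM at 7 h, so the later time point was the higher. The log2 fold change was 1.38 ± 0.08 and 2.63 ± 0.08 (edgeR adjusted p = 5.13e-09 and 1.43e-12). With KCl it was 32.6 and 32.6 TPM at 2 h and 44.9 and 46.4 TPM at 7 h, log2 differences of -0.22 ± 0.09 and 0.25 ± 0.08 (edgeR adjusted p = 0.0444 and 0.0150). Both KCl calls were marginal. The one at 2 h was lost on leaving out replicate 1 or 2 of the control (edgeR adjusted p = 0.117 and 0.112) or of KCl 2 h (0.105 and 0.115), and with DESeq2 (0.0677). The one at 7 h was lost without replicate 1 (0.0591) or 2 (0.0540) of the control or replicate 2 of KCl 7 h (0.0817), and on the log2(TPM + 1) scale (0.05, 0.598). The heat control had 120.5 and 104 TPM, 44 °C 124 and 142 TPM, and 42 °C 30.7 and 37.1 TPM. At 42 °C the log2 fold change was -1.57 ± 0.10 (edgeR adjusted p = 1.52e-08). At 44 °C the difference of 0.19 ± 0.09 did not pass (0.0674), although it passed without the filter on low counts (0.00570), by limma on log2(TPM + 1) (0.0392), and without replicate 1 of 44 °C (0.31, 0.00638) or of the heat control (0.30, 0.0169). In the order of the 8 groups, KCl 2 h overlapped with 42 °C, the control with KCl 7 h, and 2 h of H2O2 with both the heat control and 44 °C, which did not overlap each other.

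Atf3 (chromosome 1, 191170296 to 191183333), known as an early-response member of the family, had the widest range, 36.9-fold from the lowest to the highest group mean. It stood at 9.89 and 9.97 TPM in the control and 328 and 333 TPM after 2 h of H2O2, then 53.9 and 66.1 TPM at 7 h. These are log2 rises of 5.06 ± 0.09 and 2.67 ± 0.09 (edgeR adjusted p = 3.39e-13 and 6.17e-12), and 7 h against 2 h was -2.39 ± 0.08 (5.47e-12). KCl gave 45.1 and 43.4 TPM at 2 h, a rise of 2.25 ± 0.09 (edgeR adjusted p = 2.86e-10). At 7 h of KCl the libraries had 8.59 and 9.35 TPM, with a log2 difference of -0.05 ± 0.11 (0.716). In the heat experiment it had 14.8 and 14.4 TPM in the control, 27.9 and 31.8 TPM at 44 °C, and 233 and 239.8 TPM at 42 °C. Atf3 rose at 42 °C, where the other transcription factors of the set fell, by 4.21 ± 0.06 in log2, and at 44 °C by 0.97 ± 0.07 (edgeR adjusted p = 5.85e-15 and 3.85e-08).

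The eIF2 phosphatase subunits differ in kind: GADD34 is the stress-inducible one and CReP the constitutive one. Ppp1r15a RNA (chromosome 7, 45522917 to 45526268) stood at 22.9 and 24.9 TPM in the control, 166 and 168 TPM at 2 h of H2O2 and 133 and 138 TPM at 7 h. KCl gave 137 and 118 TPM at 2 h and 37.4 and 36.8 TPM at 7 h. All 8 treated libraries lay above both controls, and the levels at 7 h of H2O2 and 2 h of KCl overlapped. The log2 fold changes were 2.81 ± 0.08 and 2.59 ± 0.08 with H2O2 and 2.51 ± 0.08 and 0.74 ± 0.08 with KCl (edgeR adjusted p = 4.82e-12, 1.54e-12, 2.65e-11 and 1.59e-06). In the heat experiment it had 36.0 and 33.3 TPM in the control, 30.1 and 31.9 TPM at 44 °C and 41.0 and 42.3 TPM at 42 °C. The fold change was -0.23 ± 0.06 at 44 °C and 0.45 ± 0.06 at 42 °C (edgeR adjusted p = 0.00446 and 1.67e-05). The first of these was lost without replicate 1 of 44 °C (-0.17, 0.0522) or of the heat control (-0.17, 0.0548).

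Ppp1r15b (chromosome 1, 133131166 to 133139800) had the narrowest range, 2.49-fold between its lowest and highest group means. It had 45.1 and 47.4 TPM in the control, 99.5 and 110.1 TPM at 2 h of H2O2 and 49.8 and 59.7 TPM at 7 h. KCl gave 63.7 and 62.3 TPM at 2 h and 64.3 and 63.8 TPM at 7 h. All 8 treated libraries lay above both controls. The log2 rises were 1.18 ± 0.08 and 0.32 ± 0.08 with H2O2 and 0.54 ± 0.08 and 0.57 ± 0.08 with KCl (edgeR adjusted p = 2.87e-08, 0.00230, 5.76e-05 and 1.84e-05). Without replicate 2 of H2O2 7 h the second of these was 0.19 (0.0621). The heat control had 67.4 and 66.0 TPM, 44 °C 72.8 and 69.7 TPM, and 42 °C 40.8 and 43.5 TPM. The difference at 44 °C was 0.03 ± 0.04 (edgeR adjusted p = 0.509) and at 42 °C -0.48 ± 0.04 (3.13e-07).

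The effectors act on growth signalling and redox balance. Trib3 (chromosome 2, 152337425 to 152344060) encodes a pseudokinase that binds ATF4 and AKT. It had 10.7 and 11.2 TPM in the control, 66.7 and 55.9 TPM at 2 h of H2O2 and 129.9 and 123 TPM at 7 h. KCl gave 6.86 and 5.32 TPM at 2 h and 11.5 and 12.5 TPM at 7 h. All H2O2 libraries lay above the control and both 2 h KCl libraries below it. The log2 fold changes with H2O2 were 2.49 ± 0.10 and 3.61 ± 0.10 (edgeR adjusted p = 1.49e-10 and 9.10e-13). With KCl they were -0.75 ± 0.13 and 0.23 ± 0.12 (0.000246 and 0.0949). In the heat experiment Trib3 had 104 and 88.9 TPM in the control, 75.4 and 76.8 TPM at 44 °C, and 9.41 and 8.91 TPM at 42 °C. The log2 fold changes were -0.41 ± 0.06 and -3.20 ± 0.08 (edgeR adjusted p = 5.45e-05 and 1.02e-12), the second being the largest fall of the 10 genes at 42 °C.

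Chac1 (chromosome 2, 119351242 to 119354326) encodes an enzyme that breaks down glutathione. It had 14.5 and 15.1 TPM in the control, 152 and 134 TPM at 2 h of H2O2 and 107 and 106 TPM at 7 h. The log2 rises were 3.27 ± 0.09 and 2.93 ± 0.09 (edgeR adjusted p = 2.99e-12 and 1.13e-12). KCl gave 8.43 and 7.20 TPM at 2 h and 31.6 and 34.4 TPM at 7 h, below and then above the control. The log2 fold changes were -0.82 ± 0.11 and 1.26 ± 0.09 (edgeR adjusted p = 2.42e-05 and 2.59e-08). The heat control had 78.3 and 73.1 TPM, 44 °C 40.2 and 46.7 TPM, and 42 °C 16.2 and 19.2 TPM, with no overlap. The log2 fold changes were -0.87 ± 0.08 and -1.92 ± 0.09 (edgeR adjusted p = 2.75e-07 and 4.67e-10).

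Sesn2 (chromosome 4, 132492804 to 132510456) encodes a leucine sensor that restrains mTORC1. It had 10.3 and 12.2 TPM in the control, 158 and 146 TPM at 2 h of H2O2 and 145 and 139 TPM at 7 h. The log2 rises were 3.76 ± 0.09 and 3.74 ± 0.09 (edgeR adjusted p = 1.23e-12 and 1.72e-13). KCl gave 8.75 and 8.25 TPM at 2 h, below both controls, and 9.81 and 11.3 TPM at 7 h. The difference at 2 h was -0.30 ± 0.10 (edgeR adjusted p = 0.0214), lost without replicate 2 of the control (-0.19, 0.187) or of KCl 2 h (-0.25, 0.126), and at 7 h it was 0.01 ± 0.10 (0.930). The heat control had 46.3 and 43.8 TPM, 44 °C 45.1 and 50.8 TPM, which overlapped it, and 42 °C 10.9 and 11.5 TPM. At 42 °C the log2 fold change was -1.82 ± 0.08 (edgeR adjusted p = 1.57e-10), while at 44 °C the difference was 0.03 ± 0.07 (0.735).

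Ddit4 (chromosome 10, 59949675 to 59951770) encodes the mTORC1 inhibitor REDD1. It had 71.3 and 88.2 TPM in the control, 90.2 and 89.5 TPM at 2 h of H2O2, and 311 and 323 TPM at 7 h, so the rise with H2O2 came at the later time. The log2 difference was 0.17 ± 0.08 at 2 h (edgeR adjusted p = 0.0766) and 2.07 ± 0.08 at 7 h (1.62e-11). Without replicate 2 of the control the value at 2 h was 0.32 (0.00305). KCl gave 115 and 117 TPM at 2 h and 136 and 142 TPM at 7 h, log2 rises of 0.65 ± 0.08 and 0.90 ± 0.08 (edgeR adjusted p = 9.41e-06 and 1.70e-07). The heat control had 179 and 188 TPM, 44 °C 209 and 207 TPM, and 42 °C 71.0 and 81.8 TPM. At 42 °C the log2 fold change was -1.08 ± 0.05 (edgeR adjusted p = 1.17e-09). The difference at 44 °C was 0.12 ± 0.05 (0.0543), and it passed in 4 of 10 alternatives. These were edgeR without the filter on low counts (0.0460), with only the groups compared (0.0319) and with a replicate block (0.0208), and limma on log2(TPM + 1) (0.0196). The levels at 42 °C and in the H2O2 and KCl control overlapped.

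**Figure D2:**
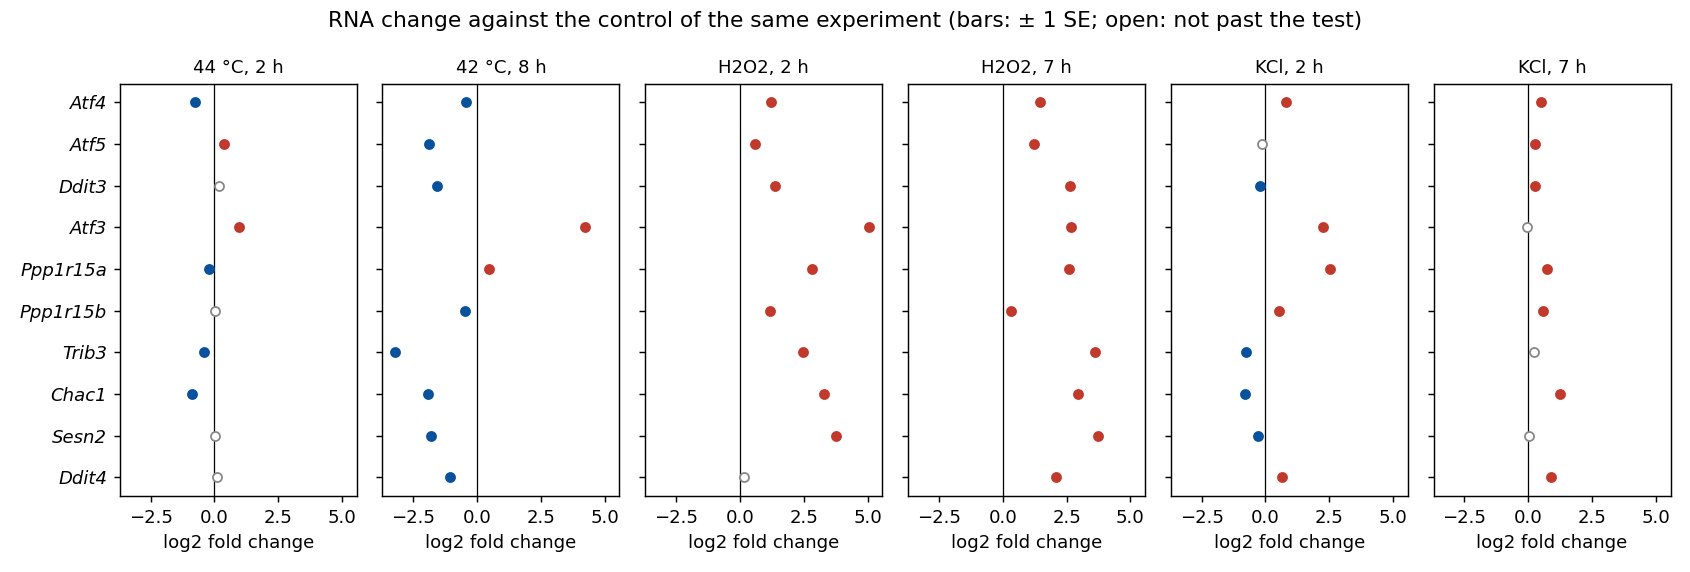
Log2 fold change of RNA (x axis) of each gene (rows) against the control of the same experiment, in 6 panels; red points are higher and blue points lower past the test, open points did not pass, and bars of 1 SE are mostly hidden by the points. H2O2 at 7 h has all 10 points to the right of 0, and 42 °C has 8 to the left.

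The times within each treatment also differed. Between 2 h and 7 h of H2O2, 9 of the 10 genes changed in RNA (5 higher and 4 lower at 7 h, against 73.4% of all genes). Ddit4 (1.90), Ddit3 (1.26), Trib3 (1.13), Atf5 (0.66) and Atf4 (0.24) were higher at 7 h in log2. Atf3 (-2.39), Ppp1r15b (-0.86), Chac1 (-0.34) and Ppp1r15a (-0.22) were lower. The Ppp1r15a difference was lost without replicate 1 of H2O2 7 h (-0.21, edgeR adjusted p = 0.0723). With KCl 9 of the 10 changed between the times (6 higher and 3 lower, against 68.8%), among them Chac1 (2.08), Atf3 (-2.30) and Ppp1r15a (-1.77). Of these, Sesn2 (0.32) was lost without replicate 2 of KCl 2 h (0.26, edgeR adjusted p = 0.0969) or of KCl 7 h (0.23, 0.14). Set against 44 °C, a condition that differs in both temperature and time, 42 °C differed in all 10 genes (3 higher and 7 lower at 42 °C, against 75.1%). On the log2(TPM + 1) scale the Atf4 difference of 0.32 there was 0.06 (limma adjusted p = 0.155).

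H2O2 and KCl were also compared directly. At 2 h all 10 genes differed, 9 higher with H2O2 and 1 lower, against 51.3% of all genes. Chac1 (4.09 ± 0.10), Sesn2 (4.07 ± 0.09) and Trib3 (3.24 ± 0.12) had the largest log2 differences, and Ddit4 was the one lower with H2O2 (-0.47 ± 0.08, edgeR adjusted p = 0.000200). Ppp1r15a had the smallest difference, 0.30 ± 0.07 (edgeR adjusted p = 0.00327). At 7 h all 10 again differed, 9 higher and 1 lower, against 78.4%. The lower one was then Ppp1r15b (-0.25 ± 0.08, edgeR adjusted p = 0.0108), which did not pass without replicate 1 of H2O2 7 h (-0.14, 0.166) or of KCl 7 h (-0.23, 0.0578).

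The heat responses start from a control in which the set was already high, a comparison chosen after the values were seen. All 10 genes were higher in the heat control than in the H2O2 and KCl control, against 53.9% of all 13597 genes in either direction and 26.9% higher. On the log2(TPM + 1) scale 5066 of all genes were higher and 1832 lower there, beside 3655 and 3671 in the main fit. The ratio of mean TPM was 8.82 for Trib3, 5.13 for Chac1, 4.0 for Sesn2, 2.74 for Atf5, 2.55 for Ddit3, 2.30 for Ddit4 and 1.82 for Atf4. For Atf3, Ppp1r15a and Ppp1r15b it was 1.44 to 1.47. The effectors had a median log2 difference of 2.03 in that comparison, and the eIF2 phosphatase subunits one of 0.38. At 42 °C the levels came to 0.838 times those of the H2O2 and KCl control for Trib3, 1.20 times for Chac1, 0.996 times for Sesn2 and 0.958 times for Ddit4. For the other genes this ratio was 23.8 (Atf3), 1.74 (Ppp1r15a), 1.18 (Atf4), 0.912 (Ppp1r15b), 0.771 (Ddit3) and 0.659 (Atf5). Against their own control at 42 °C, mean TPM was 10.5-fold lower for Trib3, 4.27-fold for Chac1, 4.16-fold for Atf5 and 4.02-fold for Sesn2. The controls belong to different experiments, so a difference between experiments and a difference between control conditions cannot be told apart.

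The difference of the responses was tested in 1 fit of the 16 RNA libraries. The response to 42 °C minus the response to H2O2 at 7 h passed for all 10 genes, 1 higher and 9 lower, against 64.8% of all genes. Atf3 was the higher one (1.60 ± 0.13), and Trib3 (-6.76 ± 0.14), Sesn2 (-5.51 ± 0.12), Chac1 (-4.79 ± 0.13) and Ddit3 (-4.14 ± 0.14) were lowest. The response to 44 °C minus that to H2O2 at 2 h passed for 9 genes, all lower, against 58.0%. Here the median of all genes was itself -0.11, and Ddit4 (-0.10 ± 0.10, edgeR adjusted p = 0.416) sat near it. Atf5 (-0.24 ± 0.10, edgeR adjusted p = 0.0450) was lost on leaving out any library other than replicate 2 of the control. Its smallest value was that without replicate 1 of the control (-0.06, 0.668).

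Footprints rose with H2O2 for most of the set. At 2 h 9 of the 10 passed and all were higher, against 1.91% of all 10545 genes in either direction and 1.14% higher. At 7 h 8 were higher, against 27.7% in either direction and 17.2% higher. Atf4 had 42.9 and 46.4 footprint TPM in the control, 248 and 216 after 2 h of H2O2, then 142 and 183 after 7 h, from 176 to 1204 footprints in each library. The log2 rises were 2.44 ± 0.23 and 1.76 ± 0.23 (edgeR adjusted p = 0.000141 and 0.000101). The mTORC1 inhibitors followed. Sesn2 went from 7.26 and 8.14 footprint TPM to 75.2 and 89.7 at 2 h and 88.7 and 111 at 7 h, rises of 3.49 ± 0.28 and 3.59 ± 0.27 (3.31e-05 and 1.37e-06). Ddit4 went from 50.6 and 47.9 to 126 and 131 at 2 h and 348 and 532 at 7 h, rises of 1.45 ± 0.24 and 3.06 ± 0.24 (0.00879 and 1.91e-06). Trib3 went from 13.2 and 8.72 to 61.7 and 57.7 at 2 h and 80.7 and 94.9 at 7 h, rises of 2.5 ± 0.29 and 2.89 ± 0.28 (0.000619 and 1.00e-05). In these 4 genes both libraries of each H2O2 time lay above both controls. The same held for Atf5, Ddit3, Atf3, Chac1 and Ppp1r15a, while Ppp1r15b overlapped the control at 7 h. The share of all genes without such overlap was not counted.

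Among the other transcription factors, Atf3 had 27.1 and 15.3 footprint TPM in the control, 168 and 299 after 2 h of H2O2, then 102 and 167 after 7 h. Its log2 rises were 3.55 ± 0.38 and 2.56 ± 0.38 (edgeR adjusted p = 0.000336 and 0.000257). Ddit3 rested on few footprints, 10 and 7 in the control libraries, 19 and 62 at 2 h and 49 and 67 at 7 h. It had 5.08 and 3.81 footprint TPM in the control, 24.6 and 23.3 at 2 h and 31.9 and 40.8 at 7 h, rises of 2.46 ± 0.47 and 2.90 ± 0.46 (0.0207 and 0.000441). Atf5 had 8.89 and 18.7 in the control, 86.7 and 38.5 at 2 h and 24.7 and 38.2 at 7 h, so its replicates at 2 h were far apart. Its rise was 2.18 ± 0.51 at 2 h (0.0477) and the difference of 1.08 ± 0.51 at 7 h did not pass (0.137).

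Ppp1r15a went from 2.48 and 2.66 footprint TPM to 31.0 and 16.5 at 2 h and 16.5 and 20.8 at 7 h, rises of 3.21 ± 0.38 and 2.75 ± 0.38 (edgeR adjusted p = 0.000887 and 0.000156). Chac1 went from 26.5 and 15.9 to 64.4 and 129 at 2 h and 92.4 and 124 at 7 h, rises of 2.30 ± 0.38 and 2.25 ± 0.38 (0.00869 and 0.000688). The constitutive phosphatase subunit differed from the inducible one: Ppp1r15b had 28.6 and 33.6 footprint TPM in the control, 36.3 and 49.4 after 2 h of H2O2, then 28.7 and 25.3 after 7 h, and neither difference passed (0.54 ± 0.20, 0.198, and -0.32 ± 0.20, 0.260).

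Several footprint calls at 2 h of H2O2 depended on 1 library. Without replicate 2 of the footprint control 5 of the 10 genes passed, and Atf5 (edgeR adjusted p = 0.0691), Ddit3 (0.115), Chac1 (0.0762) and Ddit4 (0.0665) did not. Without replicate 1 of that control Atf5 (0.237), Ddit3 (0.0903) and Ddit4 (0.0616) were lost. Without replicate 1 of H2O2 2 h Atf5 was lost (1.54, 0.195), and without replicate 2 Ddit3 (0.0708) and Chac1 (0.0701) were. The calls of Atf4, Atf3, Trib3, Ppp1r15a and Sesn2 held on leaving out each library in turn.

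KCl changed fewer footprint levels. At 2 h 5 of the 10 genes passed, 4 higher and 1 lower, against 6.86% of all genes. Ppp1r15a (2.01 ± 0.39), Atf3 (1.66 ± 0.39), Ddit4 (1.24 ± 0.24) and Atf4 (0.88 ± 0.23) were higher, and Ppp1r15b (-0.78 ± 0.21) was lower. The Ppp1r15b libraries had 18.3 and 16.7 footprint TPM, both below the control. At 7 h 3 of the 10 passed, all higher, against 20.4%: Ddit4 (1.60 ± 0.24), Ddit3 (1.59 ± 0.50) and Chac1 (1.47 ± 0.38). Ddit4 had 124 and 101 footprint TPM after 2 h of KCl, then 152 and 139.8 after 7 h, above both controls. Each of the 5 calls at 2 h was lost on leaving out at least 1 library. Only 1 call remained without replicate 1 of the control or of KCl 2 h, and 2 without replicate 2 of either. At 7 h Ddit4 held in each such fit. Chac1 was lost there without replicate 2 of the control (edgeR adjusted p = 0.113) or replicate 1 of KCl 7 h (0.153), and Ddit3 without any 1 of the libraries (0.0979 and 0.164 without a control, 0.164 and 0.0995 without a KCl 7 h library).

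Between the times, 4 genes passed in footprints with H2O2 (1 higher and 3 lower at 7 h, against 29.8%) and 5 with KCl (2 higher and 3 lower, against 20.6%). Ddit4 was the one higher at 7 h of H2O2 (1.61 ± 0.23), and Chac1 (2.57 ± 0.44) and Trib3 (1.23 ± 0.34) were higher at 7 h of KCl. Lower at 7 h of H2O2 were Atf3 (-0.99 ± 0.33), Ppp1r15b (-0.87 ± 0.20) and Atf4 (-0.69 ± 0.22). The count with H2O2 was 2 without replicate 1 of H2O2 7 h, where Atf4 (edgeR adjusted p = 0.219) and Atf3 (0.259) were lost. Without replicate 2 of H2O2 2 h Ppp1r15b (0.0766) and Atf3 (0.371) were lost, and without replicate 1 of it Atf4 (0.111). With KCl, Trib3 was lost without replicate 2 of KCl 2 h (0.171) or replicate 1 of KCl 7 h (0.176), and Atf4 (-1.02) without replicate 2 of KCl 7 h (0.0974).

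**Figure D3:**
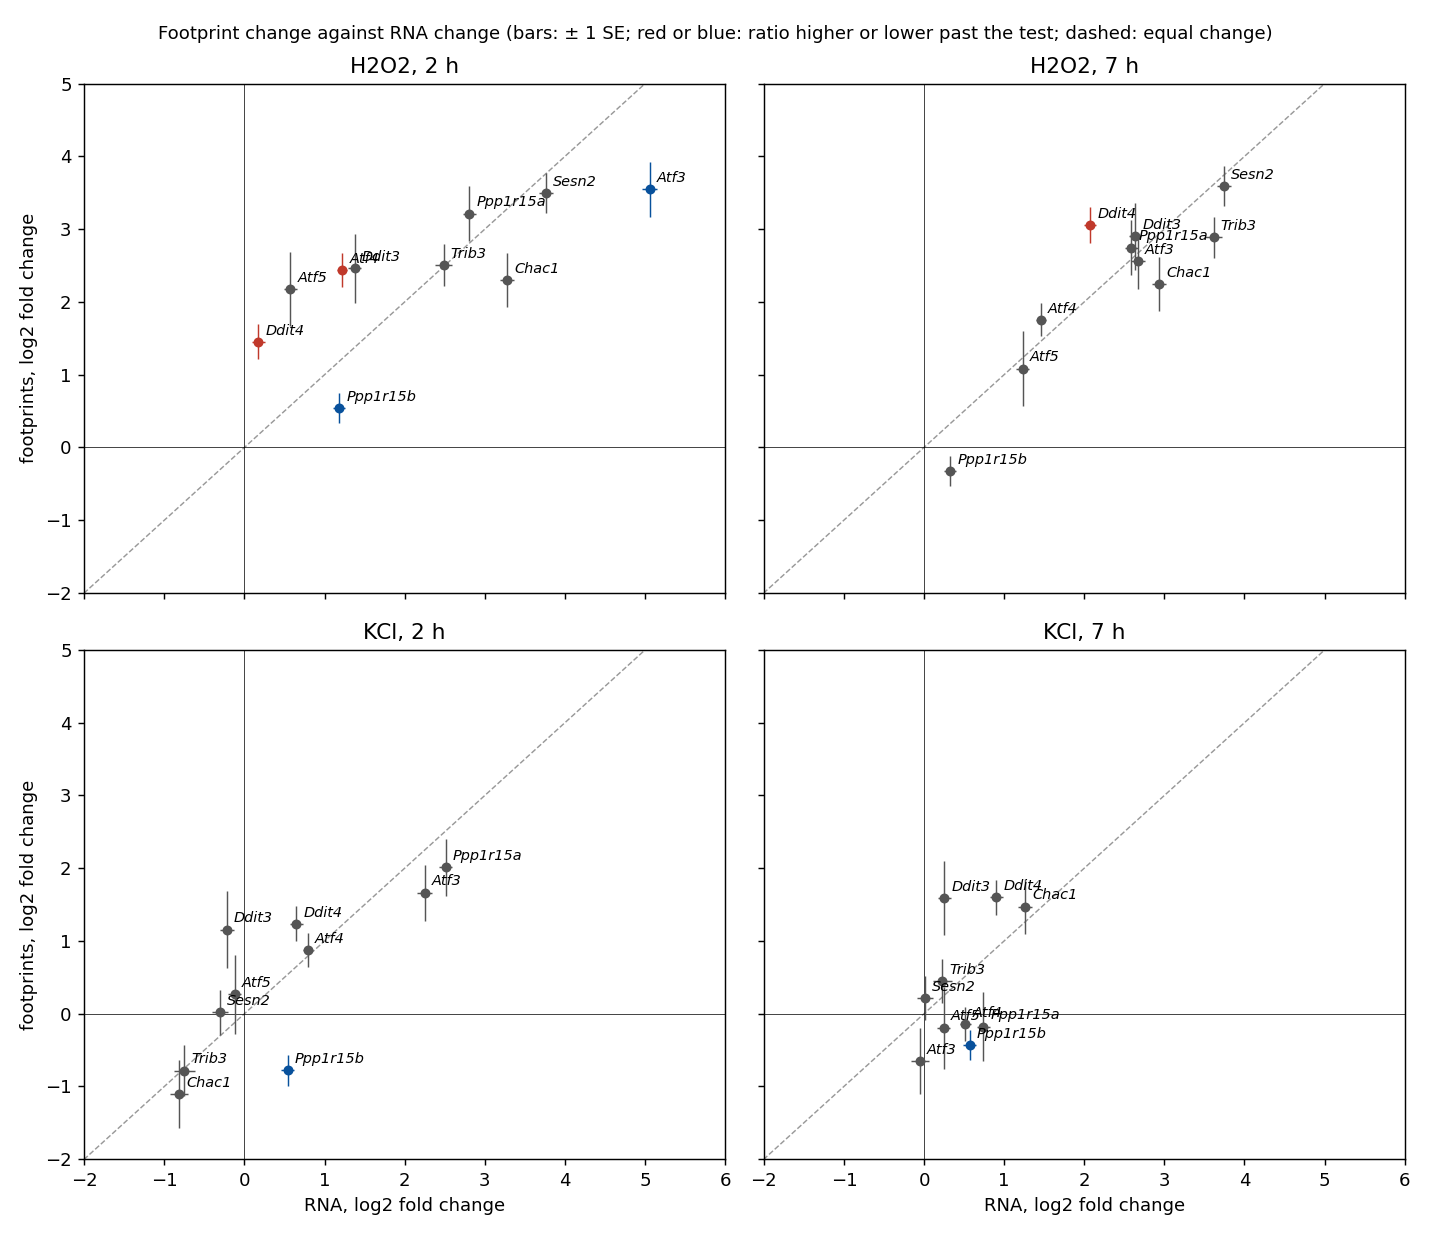
Log2 fold change of footprints (y axis) against that of RNA (x axis) for each gene and treatment, with bars of 1 SE; on the dashed line both changed alike, and red or blue points are genes whose ratio of footprints to RNA rose or fell past the test. At 2 h of H2O2 Atf4 and Ddit4 lie above the line in red. In 4 of 4 panels Ppp1r15b and Atf3 lie below the line, and Ddit3 and Ddit4 lie above it.

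The ratio of footprints to RNA separates a change in footprints from a change in the amount of RNA. It was tested as an interaction in 1 fit of both kinds of library. That fit used 1 estimate of spread per gene for both kinds, so the larger spread of footprints can be understated. For Atf4 at 2 h of H2O2 the SE was 0.227 in the ratio, beside 0.233 in footprints alone. With weights per kind of library 659 of all genes passed at that time, beside 1199 in the main fit. At 2 h of H2O2 4 of the 10 genes passed, 2 higher and 2 lower, against 11.4% of all 10480 genes. Atf4 rose by 1.18 ± 0.23 in log2 (edgeR adjusted p = 0.00329) and Ddit4 by 1.25 ± 0.26 (0.00523). Both passed in all 14 alternative fits, with adjusted p up to 0.0203 for Atf4 and 0.0284 for Ddit4. Ratios of mean TPM, footprints over RNA, were 0.12 for Atf4 in the control and 0.267 at 2 h of H2O2, and 0.618 and 1.43 for Ddit4. Ddit4 RNA had not passed the test at that time. Atf5 (1.48 ± 0.49, 0.0563) and Ddit3 (1.06 ± 0.42, 0.112) lay on the same side without passing. Atf5 passed in 4 of the 14 alternatives, among them without replicate 2 of the footprints at 2 h of H2O2 (2.10, 0.00556) or of the footprint control (2.10, 0.0307), and Ddit3 passed in 0.

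The ratio fell at 2 h of H2O2 for Atf3 (-1.51 ± 0.42, edgeR adjusted p = 0.0275) and Ppp1r15b (-0.66 ± 0.20, 0.0422), and both calls were fragile. Atf3 did not pass without replicate 2 of the RNA at 2 h of H2O2 (0.0628), either RNA control (0.0654 and 0.0600), replicate 1 of the footprints at 2 h (0.0506) or replicate 1 of the footprint control (-1.06, 0.275). Ppp1r15b did not pass without either RNA library at 2 h of H2O2 (0.0549 and 0.138), either RNA control (0.118 and 0.0865), replicate 1 of the footprints at 2 h (0.116) or replicate 2 of the footprint control (0.147). Chac1 (-0.94 ± 0.39, 0.125) passed without replicate 2 of the footprints at 2 h (-1.66, 0.00994). Ppp1r15a, Trib3 and Sesn2 had differences of 0.30 ± 0.38, -0.03 ± 0.28 and -0.29 ± 0.27, none past the test.

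At 7 h of H2O2 1 gene passed, against 9.27% of all genes, and it was Ddit4 (0.99 ± 0.25, edgeR adjusted p = 0.0192). It was lost without replicate 1 of the RNA at 7 h (0.0544), replicate 2 of the RNA control (0.0778), replicate 2 of the footprints at 7 h (0.58, 0.0707) or replicate 2 of the footprint control (0.0509). Ppp1r15b (-0.65 ± 0.20, 0.0557) passed without replicate 1 of the footprint control (-0.79, 0.0338). Atf4 was at 0.30 ± 0.23 (0.457). Under KCl the one gene to pass at each time was Ppp1r15b, with -1.33 ± 0.21 at 2 h (0.000528, where 12.8% of all genes passed) and -0.97 ± 0.21 at 7 h (0.0105, where 5.57% passed). The ratio of mean TPM of Ppp1r15b was 0.673 in the control, 0.278 at 2 h of KCl and 0.353 at 7 h. The call at 2 h held in all 14 alternatives. The call at 7 h was lost without replicate 1 of the RNA control (0.0516) or replicate 2 of the footprint control (0.0511). Ddit3 had ratio differences of 1.38 ± 0.49 and 1.37 ± 0.46 under KCl that did not pass (0.0752 and 0.0918). The Ddit3 value passed in 2 of 13 alternatives at 2 h and in 1 of 14 at 7 h. Without replicate 2 of the KCl 2 h footprints it was 1.96 at 2 h. Atf4 at 7 h of KCl (-0.63 ± 0.24, edgeR adjusted p = 0.131) passed in 1 of 14 alternatives. Without replicate 1 of the KCl 7 h footprints it was -0.91.

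In the control itself, 4 of the 5 genes known for upstream open reading frames had few footprints for their RNA. The median ratio over 10238 genes with at least 1 TPM of each kind was 0.638. Ddit3 (0.101), Ppp1r15a (0.108), Atf4 (0.12) and Atf5 (0.208) stood at the 1.0, 1.2, 1.6 and 6.1 percentiles of those genes, while Ppp1r15b (0.673) stood at the 53.2 percentile. The remaining genes ran from Ddit4 (0.618, 48.2 percentile) to Chac1 (1.43, 88.6 percentile) and Atf3 (2.14, 95.2 percentile). In all, 5 of the 10 lay below the median. Ppp1r15a had percentiles from 0.5 at 7 h of KCl to 3.0 at 2 h of H2O2. Atf4 moved from the 1.6 percentile in the control to 13 after 2 h of H2O2, then to 2.1 after 7 h. Atf5 moved from 6.1 to 49.6 and 4.3. Its ratio change at 2 h did not pass the test, and its footprint replicates there were far apart (86.7 and 38.5 TPM). Ddit3 moved from 1.0 to 7.2 and 1.0 with H2O2, and it stood at 15.3 and 14.8 after 2 h and 7 h of KCl. None of these Ddit3 ratio changes passed. The sources used here do not say whether footprints on the 5′ leader were counted, so these ratios need not be those of the main reading frame.

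**Figure D4:**
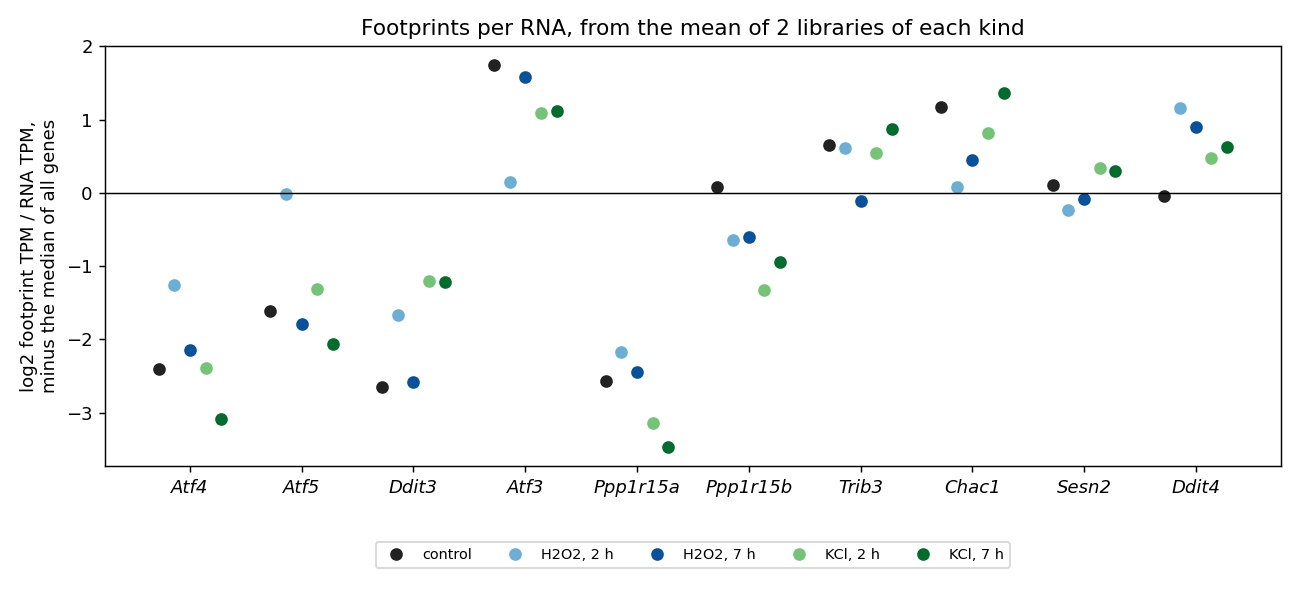
Log2 ratio of mean footprint TPM to mean RNA TPM of each gene, minus the median of all genes in the same group (0 line); 1 point per group, made from 2 libraries of each kind. Atf4, Atf5, Ddit3 and Ppp1r15a lie below the line in the control (-2.41, -1.61, -2.66 and -2.57). At 2 h of H2O2 they are nearer to it (-1.25, -0.01, -1.67 and -2.17), and of these changes only that of Atf4 passed the test.

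Across the 16 RNA libraries, each taken as its difference from the mean of its own control, Ddit3 and Trib3 had a Pearson correlation of 0.981, Trib3 and Sesn2 0.956, and Chac1 and Sesn2 0.940. Atf3 had -0.197 with Atf5 and 0.118 with Ddit3, and Ppp1r15a was closest to Atf4 (0.902). Of 9330 genes with a mean of at least 3 log2 CPM, those outside the set most like Atf4 were Fam84b (0.963), the aminoacyl-tRNA synthetases Eprs (0.961), Nars (0.938) and Tars (0.938), and the cationic amino acid transporter Slc7a1 (0.935). Those most like Ddit3 were Tnfaip2 (0.973), Arhgef2 (0.966), the mitochondrial folate enzyme Mthfd2 (0.964), the seryl-tRNA synthetase Sars (0.958) and Slc7a3 (0.956). The 16 points come in pairs of replicates from 8 groups and share their controls, so these values describe the libraries.

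Most known target genes of ATF4 were also higher under H2O2. The gene lists from here on were chosen with earlier results of these data known, so their counts describe these data and are no independent support. Of 13 amino acid synthesis and one-carbon genes targeted by ATF4, 8 rose and 2 fell in RNA at 2 h, against 27.3% higher and 26.5% lower of all genes, and all 13 rose at 7 h, against 39.4% higher. The list had medians of 0.44 and 1.69 in log2 beside 0.00 and 0.08 over all genes. At 7 h the largest rises were those of Cbs (5.47 ± 0.14) and Cth (4.41 ± 0.09), both of the transsulfuration route to cysteine, and Gpt2 (2.25 ± 0.07), an alanine aminotransferase. At each heat condition 12 of the 13 fell and none rose, against 35.7% lower at 44 °C and 31.9% lower at 42 °C of all genes, with medians of -0.73 and -1.18. In the heat control 10 of the 13 were higher than in the other control, against 26.9%. With KCl 4 of the 13 were lower at 2 h, near the 27.0% of all genes, and at 7 h 5 were lower and 2 higher, against 31.6% and 37.2%. In footprints none of the 13 passed at 2 h of H2O2, when 1.91% of all genes did, so that absence is near the usual value. At 7 h 9 of the 13 rose, against 17.2%. Their ratio of footprints to RNA fell at 7 h for 7 of the 13, against 4.57% lower of all genes, the largest falls being those of Mthfd2 (-1.29 ± 0.20) and Cth (-1.27 ± 0.29).

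Of 18 other targets of ATF4 and CHOP, 14 rose at 2 h of H2O2 and all 18 at 7 h, with none lower, against 27.3% and 39.4% higher of all genes, and with medians of 0.82 and 1.48. Gdf15 (6.10 ± 0.25), a stress-induced cytokine, and Slc7a11 (4.09 ± 0.12), the cystine transporter subunit, had the largest rises at 7 h. Slc7a11 also had the largest fall at 42 °C (-3.48 ± 0.11), where 15 of the 18 fell, against 31.9% of all genes, and 3 rose, Gdf15 (2.13 ± 0.52), Cebpb (0.70 ± 0.06) and Tnfrsf10b (0.20 ± 0.04). At 2 h of KCl 10 were higher and 3 lower, against 27.2% and 27.0% of all genes. At 7 h 7 were higher, near the 37.2% of all genes, and 8 lower, against 31.6%. The largest KCl rise at 7 h was that of Nupr1 (2.46 ± 0.10). Of 17 other bZIP factors of the ATF, CREB and C/EBP families, 15 passed at 7 h of H2O2 (9 higher and 6 lower, against 70.5% of all genes) and 11 at 42 °C (5 higher and 6 lower, near the 63.6% of all genes).

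The machinery upstream of ATF4 passed the test under H2O2 no more often than genes at large did. Of 12 genes for eIF2 kinases, eIF2 and eIF2B, 5 passed in RNA at 2 h of H2O2 (3 higher and 2 lower, against 53.9% of all genes) and 8 at 7 h (6 higher and 2 lower, against 70.5%), with medians of -0.09 and 0.13. Among the kinases, Eif2ak3 (PERK) had an RNA log2 fold change of -0.33 ± 0.08 after 7 h of H2O2, against 0.79 ± 0.07 after KCl for the same time, both past the test. Its ratio of footprints to RNA rose at 7 h of H2O2 (1.20 ± 0.25). Eif2ak4 (GCN2) had a lower ratio at 2 h (-1.10 ± 0.18) and 7 h (-0.75 ± 0.18) of KCl. Of 6 relatives of the effectors, all passed in RNA at 7 h of H2O2, 4 higher and 2 lower, against 39.4% and 31.1% of all genes. Ddit4l, the paralog of Ddit4, rose by 7.21 ± 0.12 in log2 there and by 3.37 ± 0.16 at 7 h of KCl, and Sesn1 rose by 0.26 ± 0.07 and 1.34 ± 0.07.

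The ratio was also read in 5 other genes known for upstream open reading frames. At 2 h of H2O2 it rose for Slc35a4 (2.07 ± 0.46, edgeR adjusted p = 0.00854) and Ibtk (1.35 ± 0.26, 0.00306) and fell for Ifrd1 (-1.05 ± 0.23, 0.00792) and Eprs (-0.68 ± 0.20, 0.0362). Bace1 (0.55 ± 0.25, 0.151) did not pass. Of all genes 3.98% were higher and 7.46% lower in the ratio at that time. At 7 h Ibtk (1.39 ± 0.26) was higher, and Ifrd1 (-1.16 ± 0.23) and Eprs (-0.87 ± 0.20) lower. Over all genes 4.69% were higher and 4.57% lower there. Under KCl the one gene of the 5 to pass was Ifrd1, with -1.91 ± 0.24 at 2 h and -1.12 ± 0.25 at 7 h. Of all genes 12.8% and 5.57% passed at these times, so a single call among 5 genes is near the usual number.

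The authors' deposited table of transcription past gene ends touches some of these genes. A downstream-of-gene transcript (DoG) is read-through past the 3′ end of an upstream gene, and read-in is its entry into the next gene. Of 6399 gene pairs, 11 hold 1 of the 10 genes, 6 as the upstream and 5 as the downstream gene, and none of the 11 has a read-in call in any of the 16 libraries. Of all pairs in the authors' deposited table, 5.45% have a read-in call in at least 1 library, so 0 of 11 is near the usual value. The pair of Sesn2 with Med18 has a DoG call in 16 of 16 libraries, as 4.33% of all pairs do. Chac1 with Chp1 has one in 5 libraries, both of H2O2 at 2 h, both of 44 °C and 1 of KCl at 2 h, and in 0 of 4 controls. Atf5 with Zfp473 has 4 calls and Atf3 with Fam71a 5, also with none in the controls, as is the case for 49.0% of all pairs. Over all pairs the share with a DoG call was 34.4% and 35.7% at 2 h of H2O2 and 24.2% and 25.2% in its control. Ddit3 with Arhgap9 has 7 calls, 2 of them in controls.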

How the data were processed

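The authors deposited estimated counts per gene (expected counts, all whole numbers in the files) and TPM (transcripts per 1000000) for each library, and a table of gene pairs with yes or no calls and a read-in estimate, the authors' ratio whose formula no source used here gives. STAR, RSEM, Bowtie and the mm10 build are named, per the submitters' processing notes, without versions or roles. The annotation, the footprint length filter and the part of the transcript over which footprints were counted were not given in the sources used here. Columns that matched no labelled sample (12) were not used.

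The 10 genes, the gene lists and the comparison of the controls were chosen with earlier results of these data known. Counts were tested with edgeR 4.0.16 in R 4.3.3 (quasi-likelihood test, TMM, filterByExpr, Benjamini-Hochberg adjustment over all genes, threshold 0.05), in 1 fit each for heat RNA, H2O2 and KCl RNA, footprints, both kinds together for the ratio, and all RNA libraries for differences between experiments. The procedure was tested on simulated counts in which far fewer genes changed than passed in the RNA comparisons here. Alternatives used DESeq2 1.42.0, limma 3.58.1 on log2(TPM + 1) or voom weights, no filter on low counts, only the groups compared, a log2 fold change of at least 1, a replicate block, and each library left out in turn. Figures were drawn with matplotlib 3.10.9. All 10 genes are named. Of the other lists, at most the 3 largest called rises and falls in a comparison are named, except that eIF2 kinases, relatives of the effectors and other genes with upstream reading frames may all be. Genes of like pattern are the 5 with the highest Pearson correlation. Promoter windows come from RefSeq, GRCm38.p6. Replicates differed by more than counting noise, and none were identical.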

Additional observations from a re-analysis of the deposited data

Results flagged for a closer look

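For several of the 10 genes the RNA response had opposite signs in 2 conditions, each response was past the test, and the difference between them was past edgeR's test as well. For the heat conditions this held for Atf5 (difference -2.27 in log2, 42 °C minus 44 °C) and Ppp1r15a (0.68). Between 2 h and 7 h of KCl it held for Chac1 (2.08, 7 h minus 2 h) and Ddit3 (0.47), the latter resting on marginal calls at both times.

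H2O2 and KCl at 2 h had opposite signs for the effectors Chac1 (difference 4.09, H2O2 minus KCl), Sesn2 (4.07) and Trib3 (3.24), and for Ddit3 (1.60). The KCl call of Ddit3 was lost on leaving out any 1 library of its comparison, and that of Sesn2 without replicate 2 of the control (-0.19, edgeR adjusted p = 0.187) or of KCl 2 h (-0.25, 0.126). The responses to 42 °C and to 7 h of H2O2 had opposite signs for 8 genes. The differences, heat minus H2O2, were -6.76 for Trib3, -5.51 for Sesn2, -4.79 for Chac1, -4.14 for Ddit3, -3.10 for Ddit4, -3.05 for Atf5, -1.84 for Atf4 and -0.74 for Ppp1r15b. The responses to 44 °C and to 2 h of H2O2 had opposite signs for Chac1 (-4.18), Ppp1r15a (-3.08), Trib3 (-2.94) and Atf4 (-2.02). The calls of Ppp1r15a at 44 °C and of Ppp1r15b at 7 h of H2O2 were each lost on leaving out 1 library. The heat and H2O2 experiments have separate controls, which themselves differed in all 10 genes. The share of all genes with called responses of opposite sign was not counted, so these lists have no background beside them. Over all genes 31.9% were lower at 42 °C and 35.7% at 44 °C. With H2O2 27.3% were higher at 2 h and 39.4% at 7 h, and with KCl 27% were lower at 2 h.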

How the results depend on the processing

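No gene of the set reversed a called direction under any alternative run. Requiring a log2 fold change of at least 1 left these counts of the 10 genes: in RNA 0 at 44 °C, 2 at 2 h and 1 at 7 h of KCl, 4 and 3 between the times of H2O2 and KCl, 5 for H2O2 against KCl at 2 h and 6 between the controls; in footprints 3 at 2 h of KCl and 1 between the times of H2O2; in the ratio 0 after 7 h of either agent. Over all genes that rule left 1398 of 12747 in RNA at 44 °C, and 1688 and 2443 of 13256 at 2 h and 7 h of KCl. It left 3517 and 2896 between the times of H2O2 and KCl, and 1669 for H2O2 against KCl at 2 h. In footprints it left 580 of 10545 at 2 h of KCl and 2084 between the times of H2O2. In the ratio it left 494 of 10480 after 7 h of H2O2. With only the groups compared in the fit, 5 passed in footprints at 2 h of H2O2, where 27 of all 10026 genes did. In the ratio 2 and 0 passed at 2 h and 7 h of H2O2, where 600 of 9953 and 1087 of 10218 did. On the log2(TPM + 1) scale 3 passed in footprints at 2 h of KCl and 2 between the times of H2O2. With voom weights 2 passed in the ratio at 2 h of H2O2. With DESeq2 2 passed in the ratio at 7 h of H2O2, at 2 h of KCl and at 7 h of KCl. The cause of these shifts was not tested.

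Leaving out 1 library at a time gave counts from 5 to 8 in footprints at 2 h of H2O2, 1 to 2 at 2 h of KCl, 1 to 2 at 7 h of KCl, and 2 to 4 between the times of H2O2. In the ratio it gave 2 to 6 at 2 h of H2O2, 0 to 2 at 7 h, 1 to 2 at 2 h of KCl and 0 to 2 at 7 h of KCl. Where it left 1 library in a group, that library was assumed to vary like the other groups. The share of all genes that passed also varied between these fits and is not set beside these counts. Footprint depth limits the tests of Ddit3, with as few as 7 footprints in a library. Other genes were also thinly counted, such as Ppp1r15a with 20 and 20 in the control and 16 and 12 at 7 h of KCl. At 2 h of KCl Chac1 had 22 and 14 and Trib3 24 and 15.

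Same-numbered libraries deviated in the same direction in some pairs of groups and in opposite directions in others (correlations from -0.487 to 0.508), and the labels do not say that numbers pair samples. With the replicate number as a block, 2 genes passed in the ratio at 7 h of H2O2, where 1102 of all 10480 genes did. Ppp1r15b came to -0.64 there (edgeR adjusted p = 0.0469). Ddit4 passed in RNA at 2 h of H2O2 (0.0491) and at 44 °C (0.0208), and Atf5 was lost in footprints at 2 h of H2O2 (0.0520). The block changed no other call.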
